A study of Mus musculus with 6 samples.

Results

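The 10 genes described here encode histone chaperones and factors of chromatin assembly: Chaf1a, Chaf1b, Asf1a, Asf1b, Nasp, Hjurp, Slbp, Hira, Daxx and Rbbp4. They were taken by symbol from the deposited table of 55487 genes, in which each had 1 row. RNA was sequenced from YFP-positive cells that had been sorted from the subventricular zone (SVZ), the stem cell niche along the lateral ventricles of the adult mouse brain. All mice carried a tamoxifen-inducible NestinCreERT2 recombinase and an EYFP reporter at the R26 locus, on a mixed C57BL/6;Sv/129 background. The THC group, labelled Rb(F/+);p107(+/-);p130(F/+), was heterozygous for the 3 pocket proteins of the retinoblastoma family, and the TKO group, labelled Rb(F/F);p107(-/-);p130(F/F), was homozygous at all of them. Mice of both genotypes received tamoxifen by gavage (200 mg/kg per day for 5 days, starting at 6 to 10 weeks of age), and cells were taken 10 days after the last dose. The controls therefore also carried recombined alleles and had also received the drug. Each sample pooled several mice, so that it held at least 200000 sorted cells, and sorting followed recombination in cells with Nestin promoter activity and in their progeny, not a cell type. There were 3 samples per genotype, 1 of each in a February batch and 2 of each in a November batch.

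Histone chaperones escort histones from their synthesis to DNA. Behind the replication fork, the CAF-1 complex (the large subunit encoded by Chaf1a, the middle subunit by Chaf1b and the small subunit by Rbbp4) is recruited by the PCNA clamp and deposits new H3-H4. Outside replication, the HIRA complex and the DAXX-ATRX pair deposit the variant H3.3, HIRA at active genes and DAXX at repeats and heterochromatin. ASF1 and NASP carry H3-H4 for several pathways, HJURP loads the centromeric variant CENP-A, and SLBP binds the stem-loop of replication-dependent histone mRNAs. Pocket proteins restrain E2F transcription factors, and many genes of DNA synthesis are known E2F or DREAM complex targets. The genes were grouped as replication-coupled (Chaf1a, Chaf1b, Slbp), shared H3-H4 carriers (Asf1a, Asf1b, Nasp, Rbbp4), replication-independent (Hira, Daxx) and centromeric (Hjurp).

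Because the genotypes differ in proteins that act through E2F and DREAM, promoters of 4 of the genes are shown. They are the CAF-1 gene Chaf1a, the ASF1 paralogues, which differed in response, and Hira. Each run is the 250 bases before the RefSeq gene start (GRCm38.p6), 5′ to 3′ on the gene's strand, and capitals mark matches to an E2F-type word or a cell cycle homology region (CHR) word on either strand. In GENCODE M21 the Asf1a and Asf1b gene models start inside these windows, and those of Chaf1a and Hira start downstream of theirs.
Chaf1a, chr17:56040166-56040415, + strand: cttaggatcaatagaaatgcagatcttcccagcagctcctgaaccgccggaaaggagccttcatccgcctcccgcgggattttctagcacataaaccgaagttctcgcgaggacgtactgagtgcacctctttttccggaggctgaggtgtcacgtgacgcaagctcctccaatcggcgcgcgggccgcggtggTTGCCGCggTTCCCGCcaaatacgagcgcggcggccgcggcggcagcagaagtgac
Asf1b, chr8:83955444-83955693, + strand: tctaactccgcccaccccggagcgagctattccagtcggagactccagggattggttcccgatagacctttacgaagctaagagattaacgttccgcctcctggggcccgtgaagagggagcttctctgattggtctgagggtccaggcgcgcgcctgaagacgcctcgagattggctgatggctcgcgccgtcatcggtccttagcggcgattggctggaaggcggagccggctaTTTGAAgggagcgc
Asf1a, chr10:53596711-53596960, + strand: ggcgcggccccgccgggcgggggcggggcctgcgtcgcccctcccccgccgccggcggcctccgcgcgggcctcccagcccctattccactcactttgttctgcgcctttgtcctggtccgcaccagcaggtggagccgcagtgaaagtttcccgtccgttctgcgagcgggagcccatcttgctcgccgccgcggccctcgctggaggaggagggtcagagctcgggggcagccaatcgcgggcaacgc
Hira, chr16:18876500-18876749, + strand: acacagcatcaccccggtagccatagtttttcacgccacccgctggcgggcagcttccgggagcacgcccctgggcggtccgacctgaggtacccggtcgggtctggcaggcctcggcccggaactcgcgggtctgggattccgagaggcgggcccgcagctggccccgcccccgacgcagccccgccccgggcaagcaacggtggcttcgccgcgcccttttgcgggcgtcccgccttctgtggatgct

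Both strands were searched. The E2F-type words were TTCCCGC with the variants TTGGCGC plus TTCGCGC as well as TTGCCGC, while the CHR words were TTTGAA or else TTCGAA. RefSeq windows were found for all 10 genes, 12 windows in all because Daxx has several starts. E2F-type words lay in 3 of these 12 windows (25.0%), those of Chaf1a, Chaf1b and Rbbp4, and in 7.9% of 32851 mouse promoter windows of the same length. The Chaf1a window holds TTGCCGC at position -56 and TTCCCGC at position -47 from the gene start, the Rbbp4 window holds 2 matches that overlap each other, at -15 and -12, and the Chaf1b window holds 1, at -227. CHR words lay in 2 of the 12 windows (16.7%), those of Asf1b (-14) and Nasp (-130), and in 17.1% of all windows. The CCAAT word lay in 8 of the 12 windows (66.7%), 4 times in that of Asf1b, and in 33.8% of all windows. Neither the E2F-type nor the CHR words are in the windows of Slbp, Asf1a, Hira, Daxx or Hjurp. These matches describe letters and not binding.

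The chaperones linked to replication and the centromere were higher in TKO, and the replication-independent ones did not pass the test. Levels are normalized counts, that is, reads per gene divided by 1 factor per sample. Changes are log2 TKO over THC of the normalized count plus 1, from limma with a batch term, and a gene is said to have risen or fallen at an adjusted p under 0.05 over all genes tested. All 10 genes passed the filter on low values, in both genotypes. Of these, 8 rose and none fell, where 14.3% of the 17278 genes tested rose and 13.6% fell. The median change of the 10 genes was 0.91, against 0.00 for all genes tested. Every TKO library lay above every THC library for 9 of the 10, where 19.4% of all genes tested did so and 19.5% lay entirely below. The 3 replication-coupled genes had a median change of 1.29 (range 1.21 to 1.34) and the 4 shared carriers one of 0.61 (range 0.48 to 2.09). The 2 replication-independent genes had a median of 0.33 (range 0.28 to 0.38), and Hjurp had a change of 1.15. Rbbp4 (0.48), also a CAF-1 subunit, is counted among the carriers. All 10 differences were positive in the February pair and within November, with medians of 1.01 and 0.84. In these sorted pools, more cells that express a gene and more RNA per cell cannot be told apart.

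**Figure D1:**
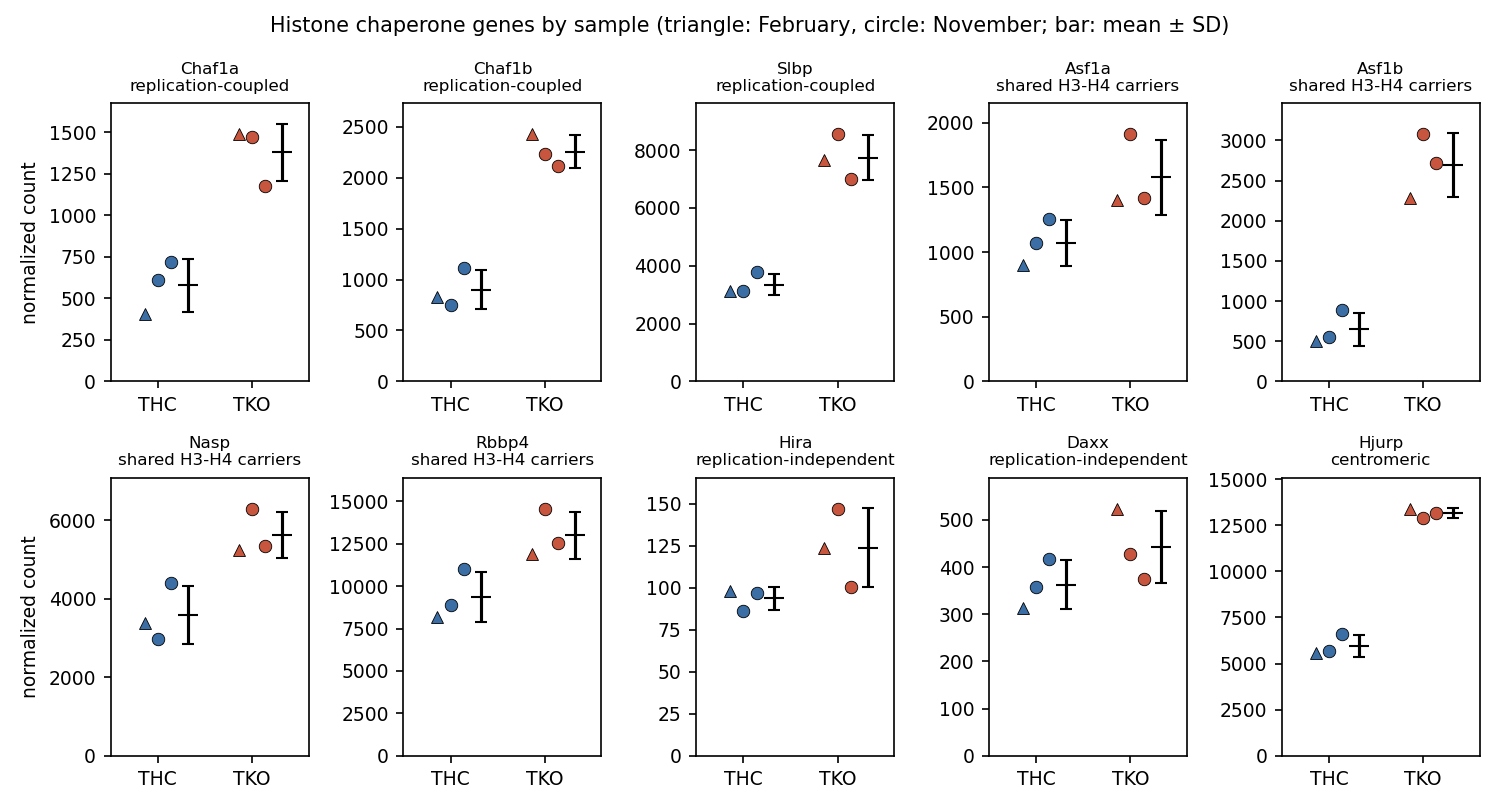
Normalized counts (vertical axis, from 0) of each of the 10 genes in the 3 THC and 3 TKO samples (horizontal axis), with triangles for February, circles for November and bars for the mean ± SD. The TKO points lie above the THC points in every panel except Daxx, where they overlap.

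**Figure D2:**
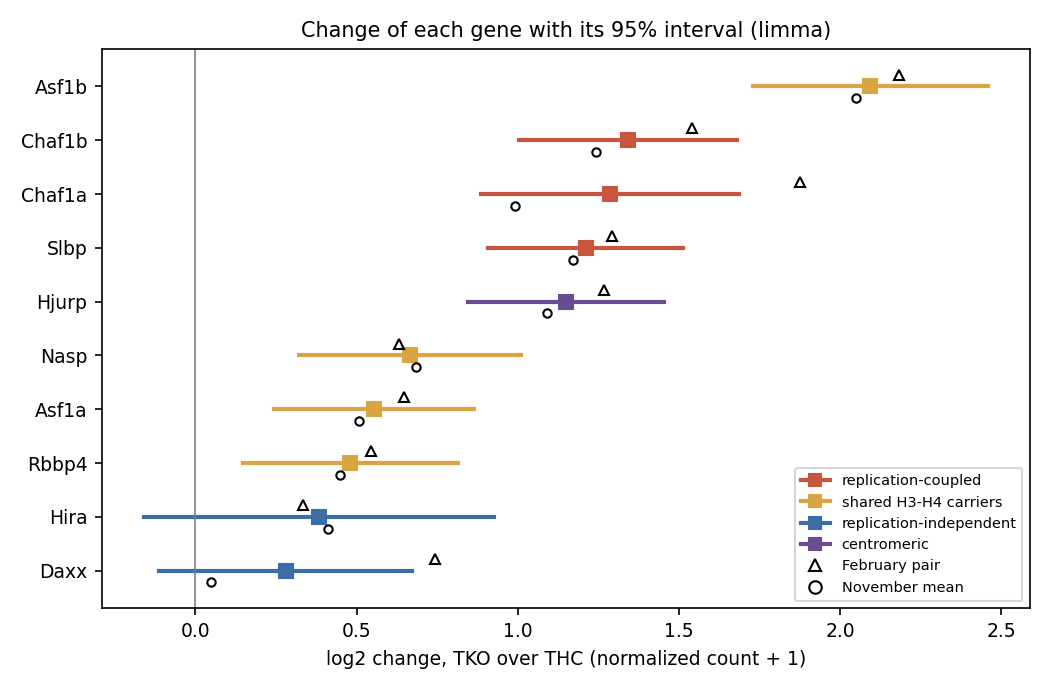
Log2 change of each gene, TKO over THC (horizontal axis), with its 95% interval from limma, coloured by role; open triangles are the February difference and open circles the November difference. Asf1b has the highest change (2.09), and the intervals of Hira and Daxx include 0.

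Chaf1a and Chaf1b, the genes of the large and middle CAF-1 subunits, both rose; Rbbp4, that of the small subunit, is given with the carriers. Chaf1a (ENSMUSG00000002835, chromosome 17, 56040439 to 56072289, GRCm38, whole gene span), which encodes the large subunit that binds PCNA, had normalized counts of 404, 610.1 and 717 in THC 1 to 3 and 1486, 1469 and 1177 in TKO 1 to 3. The lowest TKO value was well above the highest THC value. Chaf1a rose by 1.29 (SE 0.18, adjusted p = 0.00028), or 2.44-fold. In the February pair, whose THC sample was the lowest of all, the difference was 1.88, and in November it was 0.99. Chaf1b (ENSMUSG00000022945, chromosome 16, 93883901 to 93906115), which encodes the middle, WD-repeat subunit, was at 833, 751 and 1118 in THC and at 2425, 2234 and 2109 in TKO. The groups did not overlap, and Chaf1b rose by 1.34 (SE 0.16, adjusted p = 5.9e-05). Batch differed less here, with 1.54 in February and 1.24 in November.

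Slbp (ENSMUSG00000004642, chromosome 5, 33634952 to 33652574) was more abundant than the CAF-1 genes and rose by a like amount. Its product is needed for the 3' processing and translation of histone mRNAs that lack a poly(A) tail. Slbp was at 3131, 3126 and 3770.0 in THC and at 7669, 8546 and 6989 in TKO. The THC samples 1 and 2 were nearly equal, and the groups were far apart. The rise was 1.21 (SE 0.14, adjusted p = 5.4e-05). The batches gave nearly the same difference, February 1.29 and November 1.17.

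The H3-H4 carriers all rose, by unequal amounts. Asf1b (ENSMUSG00000005470, chromosome 8, 83955507 to 83970197), the ASF1 form linked to proliferating cells, was at 501, 549.6 and 889 in THC and at 2279.9, 3076 and 2724 in TKO. Its lowest TKO value was over the highest THC value by a wide margin. Asf1b rose by 2.09 (SE 0.17, adjusted p = 4.7e-06), or 4.27-fold, and the batches were close (February 2.18, November 2.05). Its paralogue Asf1a (ENSMUSG00000019857, chromosome 10, 53596757 to 53609225), which serves HIRA as well as CAF-1, was at 896, 1070.0 and 1251 in THC and at 1405, 1909.7 and 1415 in TKO. The groups did not overlap, but THC 3 was close to the lower TKO samples. The rise of 0.55 (SE 0.14, adjusted p = 0.012) lost its call when THC 1 or TKO 1 was left out (0.51, adjusted p = 0.059 in each case) and when TKO 2 was (0.44, adjusted p = 0.069). With the batch term, leaving out either February sample (THC 1 or TKO 1) gives the November change, so these are not separate checks.

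Nasp and Rbbp4 were abundant and rose by less than a doubling. Nasp (ENSMUSG00000028693, chromosome 4, 116601052 to 116627941), which binds the soluble reserve of H3-H4, was at 3377, 2962 and 4406 in THC and at 5232, 6301 and 5351 in TKO. THC 3 stood above the other THC samples but below every TKO sample. Nasp rose by 0.67 (SE 0.16, adjusted p = 0.0078). Here the November difference of 0.68 was slightly above that of February, 0.63. Rbbp4 (ENSMUSG00000057236, chromosome 4, 129307100 to 129335370), a histone-binding WD-repeat protein, is the small CAF-1 subunit and also part of MuvB, Polycomb and deacetylase complexes. It was at 8162, 8895 and 11021 in THC and at 11909.7, 14580.5 and 12532 in TKO, so that THC 3 was just below TKO 1. Its rise of 0.48 (SE 0.15, adjusted p = 0.034) was no longer called when any of 4 libraries was left out. The change and adjusted p were then 0.45 and 0.20 (THC 1), 0.40 and 0.13 (THC 2), 0.45 and 0.18 (TKO 1), and 0.43 and 0.14 (TKO 2), and with no batch term the adjusted p from limma was 0.059. The changes without THC 1 and without TKO 1 are both the November change.

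Hjurp rose, as did the other genes of CENP-A loading described here. Hjurp (ENSMUSG00000044783, chromosome 1, 88262471 to 88277633) was at 5562, 5659.6 and 6608 in THC and at 13408, 12883.5 and 13184 in TKO. The 3 TKO values were within a coefficient of variation of 2.00%, the smallest spread of the 10 genes in TKO. The rise was 1.15 (SE 0.14, adjusted p = 8.2e-05), or 2.22-fold. All 3 of these other genes rose (median 1.31). Cenpa, the centromeric H3 variant itself, rose by 1.31 (SE 0.18, adjusted p = 0.00018). Oip5 and Mis18a, whose products help to mark centromeres for loading, rose by 2.04 (SE 0.23) and 1.21 (SE 0.13). In limma their adjusted p-values were 5.4e-05 and 4.2e-05. Oip5 shares 172 exon bases (9.67%) with Nusap1, whose mean normalized count was 1906 in THC and 4390.1 in TKO.

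Hira and Daxx did not pass. Hira (ENSMUSG00000022702, chromosome 16, 18877037 to 18970309), the H3.3 chaperone subunit that gives its complex its name, was at 98.2, 85.9 and 97.0 in THC and at 124, 147 and 100.4 in TKO. Every TKO value was above every THC value, but TKO 3 by a narrow margin. The change was 0.38 (SE 0.25, 95% interval -0.16 to 0.93, adjusted p = 0.29), so that a rise of the size of Asf1a was within the interval and one of the size of Chaf1a was not. Daxx (ENSMUSG00000002307, chromosome 17, 33909414 to 33915590), an H3.3 chaperone that acts with the remodeller ATRX, was at 313, 358 and 418 in THC and at 524, 428 and 375 in TKO. The groups overlapped, since TKO 3 was below THC 3. The change was 0.28 (SE 0.18, 95% interval -0.11 to 0.67, adjusted p = 0.28). It came mostly from the February pair (0.74), the November difference being 0.05.

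The partners of both chaperones did not pass either, as was so for 12464 of the 17278 genes tested. Of the genes of the HIRA complex, Ubn1 had a change of 0.16 (SE 0.12, adjusted p = 0.38), Cabin1 one of 0.17 (SE 0.14, adjusted p = 0.41) and Ubn2 one of -0.13 (SE 0.15, adjusted p = 0.57). Atrx was at 2590.1, 2499.8 and 2281 in THC and at 2575, 2861 and 3731 in TKO. Its change was 0.30 (SE 0.15, adjusted p = 0.16). The February pair was level (-0.01) and November differed by 0.45. TKO 3 was highest and TKO 1 within the THC range.

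Genes were also compared within the same library. For 2 pairs of a replication-coupled and a replication-independent gene, and for 2 pairs of paralogues among the carriers, the log2 ratio of normalized counts was taken per sample and compared between genotypes by a two-sided exact permutation test over the 6 samples. With 3 samples against 3 this exact permutation test cannot go below p = 0.10. All 4 pairs reached that value, and the Benjamini-Hochberg adjusted value over the 4 pairs was 0.10 as well in the exact permutation test. The Chaf1a to Hira ratio was 2.57 ± 0.47 in THC against 3.47 ± 0.14 in TKO (SD over 3 samples), higher by 0.90 (exact permutation p = 0.10). It was higher by 0.58 in the November samples alone and by 0.63 without THC 1. The Chaf1b to Daxx ratio was 1.30 ± 0.20 and 2.36 ± 0.14, higher by 1.06 (exact permutation p = 0.10, n = 3 each). All 3 TKO samples were above all 3 THC samples in each of these pairs.

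The ratio of the ASF1 paralogues shifted towards Asf1b. The log2 ratio of normalized counts, Asf1b to Asf1a, was -0.84, -0.96 and -0.49 in THC 1 to 3, where Asf1a had the higher count, and 0.70, 0.69 and 0.94 in TKO 1 to 3, where Asf1b did. The means differed by 1.54 (exact permutation p = 0.10, n = 3 each), and by 1.44 to 1.67 when any sample was left out. Per kilobase of exon, which corrects for the longer exons of Asf1a, the mean log2 ratio was -0.13 in THC and 1.41 in TKO, and in THC 3 Asf1b (380.1) was then above Asf1a (344). The Rbbp4 to Rbbp7 ratio moved little: 0.63 ± 0.07 in THC against 0.47 ± 0.09 in TKO (SD over 3 samples), a difference of -0.17 (exact permutation p = 0.10). Rbbp7, the paralogue that partners the acetyltransferase HAT1, rose by 0.65 (SE 0.14, adjusted p = 0.0044 in limma).

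**Figure D3:**
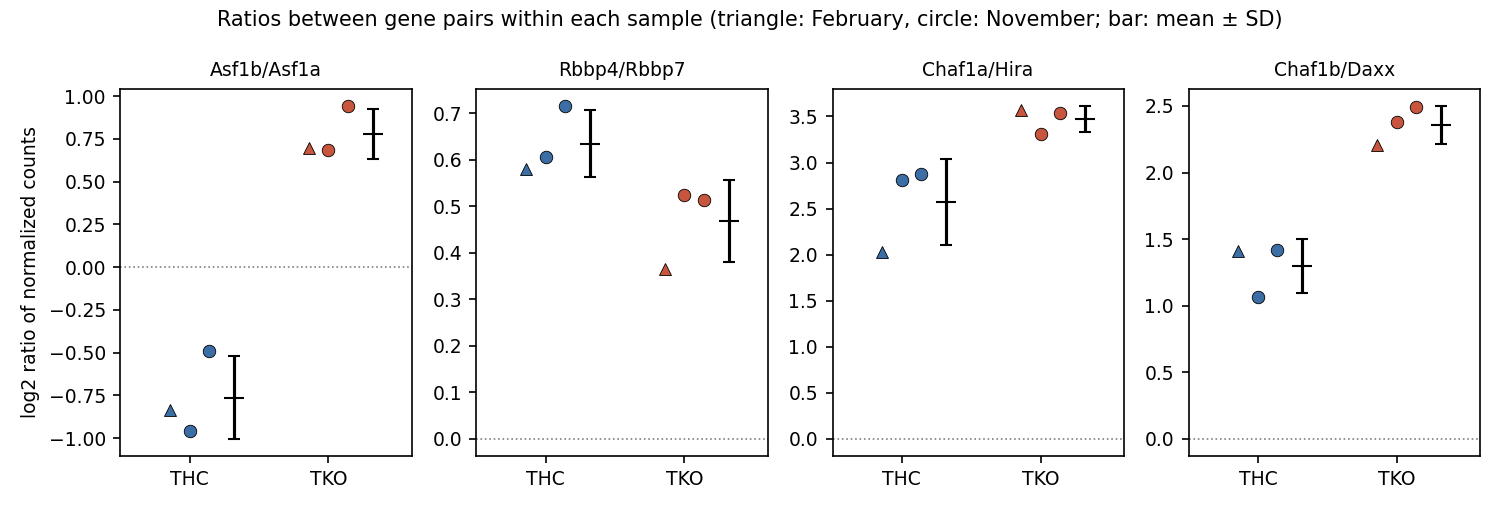
Log2 ratio of normalized counts of 2 genes within each sample (vertical axis; the scale differs between panels) in the 3 THC and 3 TKO samples, with bars for the mean ± SD; triangles are February and circles November. Asf1b/Asf1a goes from below 0 in THC to above 0 in TKO, and Rbbp4/Rbbp7 differs by -0.17.

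Levels were compared between genes per kilobase of exon (normalized count divided by the union of GENCODE M21 exons). In THC, Rbbp4 was the highest at 1070.4 ± 169.8, followed by Hjurp (713 ± 69.3), Slbp (550.1 ± 60.9), Nasp (476 ± 98.9), Asf1a (295 ± 48.8), Asf1b (277 ± 90.3), Chaf1b (192 ± 41.2), Daxx (115 ± 16.8), Chaf1a (65.2 ± 18.0) and Hira (15.1 ± 1.09) (SD, n = 3). Slbp and Nasp overlapped in their sample values, as did Asf1a and Asf1b, and Asf1b and Chaf1b. In TKO the order of the leading genes was Hjurp (1579 ± 31.6), Rbbp4 (1488 ± 159.8), Slbp (1273 ± 129) and Asf1b (1152 ± 171), each overlapping the next. Below them came Nasp (749 ± 77.9), Chaf1b (482 ± 34.0), Asf1a (433 ± 79.3), Chaf1a (156 ± 19.6), Daxx (140.3 ± 24.0) and Hira (19.9 ± 3.76). Chaf1b overlapped Asf1a, and Chaf1a overlapped Daxx. Asf1b went from rank 6 to rank 4 and Asf1a from rank 5 to rank 7.

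Some of these levels depend on bases that other genes share. Hira shares 2778 of its 6215 exon bases (44.7%) with Gm28539, a gene model on the same strand that had no reads in any library. Chaf1a shares 4648 exon bases (52.5%) with Ubxn6 on the other strand, and Asf1a shares 1748 (48.0%) with Mcm9, also on the other strand. How reads over shared bases were counted is not given in the sources used here. Since Gm28539 had no reads, none over the bases it shares with Hira was counted for it. If such reads were dropped for Hira too, the count of Hira and its level per kilobase of all exons are too low. Levels were also taken as the whole-gene count divided by only the exon bases that no other gene shares. Such a level is right only if no read over shared bases was counted. Hira was then at 27.3 per kilobase in THC and 36.0 in TKO, still the lowest of the 10. On that basis Chaf1a was at 137 and 328, and Asf1a at 567 and 834, against 277 and 1152 for Asf1b. Asf1a was thus above Asf1b in THC and below it in TKO in mean level, though in TKO the sample values of Asf1a and Asf1b overlapped. Rbbp4 rather than Hjurp was then the highest in TKO (1815).

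Libraries of a genotype differed in the levels of these genes. THC 3 was the highest THC library for 9 of the 10 genes, Hira being the exception, whereas it was the highest for 33.6% of all genes tested. In TKO the highest library was TKO 2 for 6 genes (32.6% of all genes tested) and TKO 1 for 4 (38.0% of all genes tested). The summed level of 8 markers of cycling cells was also highest in THC 3 within THC (31550.4, against 23451 and 19987 in THC 1 and 2). In TKO the sum was 67631, 77901 and 68041 in TKO 1 to 3. TKO 2, the highest TKO library for 6 of the genes, thus had the highest TKO sum. TKO 1, highest for 4 of the genes, had a sum close to that of TKO 3, which was highest for none. All 8 of these markers rose (Mki67 by 1.78, Top2a by 1.62) and none was at 0 in any library. The part of the share of cycling cells in the rise of the chaperone genes was not tested.

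Of 43 other chaperone and assembly genes, all of which passed the filter, 22 rose and 2 fell, with a median of 0.56. Over all genes tested, 14.3% rose and 13.6% fell. Among 10 further H3-H4 carriers and their regulators 7 rose. Tonsl and Mms22l, which form a complex that reads new histones behind the fork, both rose: Tonsl by 1.40 (SE 0.14, adjusted p = 1.8e-05), Mms22l by 1.12 (SE 0.15, adjusted p = 0.00019). Dnajc9, a co-chaperone of H3-H4, rose by 1.30 (SE 0.15, adjusted p = 6.1e-05). The ASF1 kinase genes Tlk1 (0.13) and Tlk2 (0.25) did not pass, and neither did the importin gene Ipo4 (0.25). Pcna, the clamp that recruits CAF-1, rose from 3899 ± 959.7 to 9807 ± 774 (log2 change 1.35, SE 0.16, adjusted p = 7.7e-05). Of the histone mRNA processing genes 5 of 6 rose, among them Casp8ap2 (0.96, SE 0.14, adjusted p = 0.00037), Eri1 (1.16, SE 0.18, adjusted p = 0.0006) and Npat (0.63, SE 0.14, adjusted p = 0.005), the last a coactivator at histone genes.

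The subunits of FACT, which moves H2A-H2B during transcription and replication, differed in size of change. Supt16 rose by 1.20 (SE 0.15, adjusted p = 0.00013), and Ssrp1 rose by 0.40 (SE 0.14, adjusted p = 0.049). The Ssrp1 call ended when THC 1 or TKO 1 was left out (0.37, the November change, adjusted p = 0.21 in each case), or THC 2 (0.34 and 0.16), or TKO 2 (0.34 and 0.19). It also ended with no filter on low values (adjusted p = 0.08), with no batch term (0.062), with upper-quartile rescaling (0.06) and in edgeR's quasi-likelihood test (0.061). The elongation chaperone gene Supt6 had a change of -0.24 (adjusted p = 0.31).

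Of 12 H2A-H2B and nucleolar chaperone genes, 4 rose and 2 fell, where 14.3% of all genes tested rose and 13.6% fell. The number that fell was thus near the share over all genes. Those that fell were NAP1 family genes known from neurons: Nap1l5 was at 2494, 2991 and 2009 in THC and at 869, 955 and 927 in TKO, and Nap1l3 at 259.6, 267 and 283 in THC and 178, 181 and 190.3 in TKO. Both had every TKO value below every THC value. Nap1l5 fell by 1.43 (SE 0.15, adjusted p = 3.0e-05) and Nap1l3 fell by 0.56 (SE 0.18, adjusted p = 0.034). The Nap1l3 call ended when any 1 of the 6 libraries was left out: the adjusted p was 0.086 without THC 1, 0.068 without THC 2, 0.096 without THC 3, 0.079 without TKO 1, 0.11 without TKO 2 and 0.082 without TKO 3. Without THC 1 or TKO 1 the change is that of November alone. The broadly expressed relative Nap1l1 rose by 0.71 (SE 0.14, adjusted p = 0.0031), and Anp32b, an acidic chaperone, rose by 0.96 (SE 0.18, adjusted p = 0.0019). Beside these, 6 of 8 neuroblast markers fell, with a summed level of 22692.5 to 30288 in THC and 14539 to 19653 in TKO and none at 0. Their part in the fall of the NAP1 genes was not tested.

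None of the 4 genes of H2A.Z exchange passed, where 12464 of the 17278 genes tested did not. For Vps72 the change was -0.38 (SE 0.15, adjusted p = 0.083), and leaving out TKO 2 brought it past the threshold (-0.53, adjusted p = 0.028). Ep400 had a change of 0.25 (SE 0.14, adjusted p = 0.22) and Znhit1 one of -0.18 (SE 0.16, adjusted p = 0.46).

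**Figure D4:**
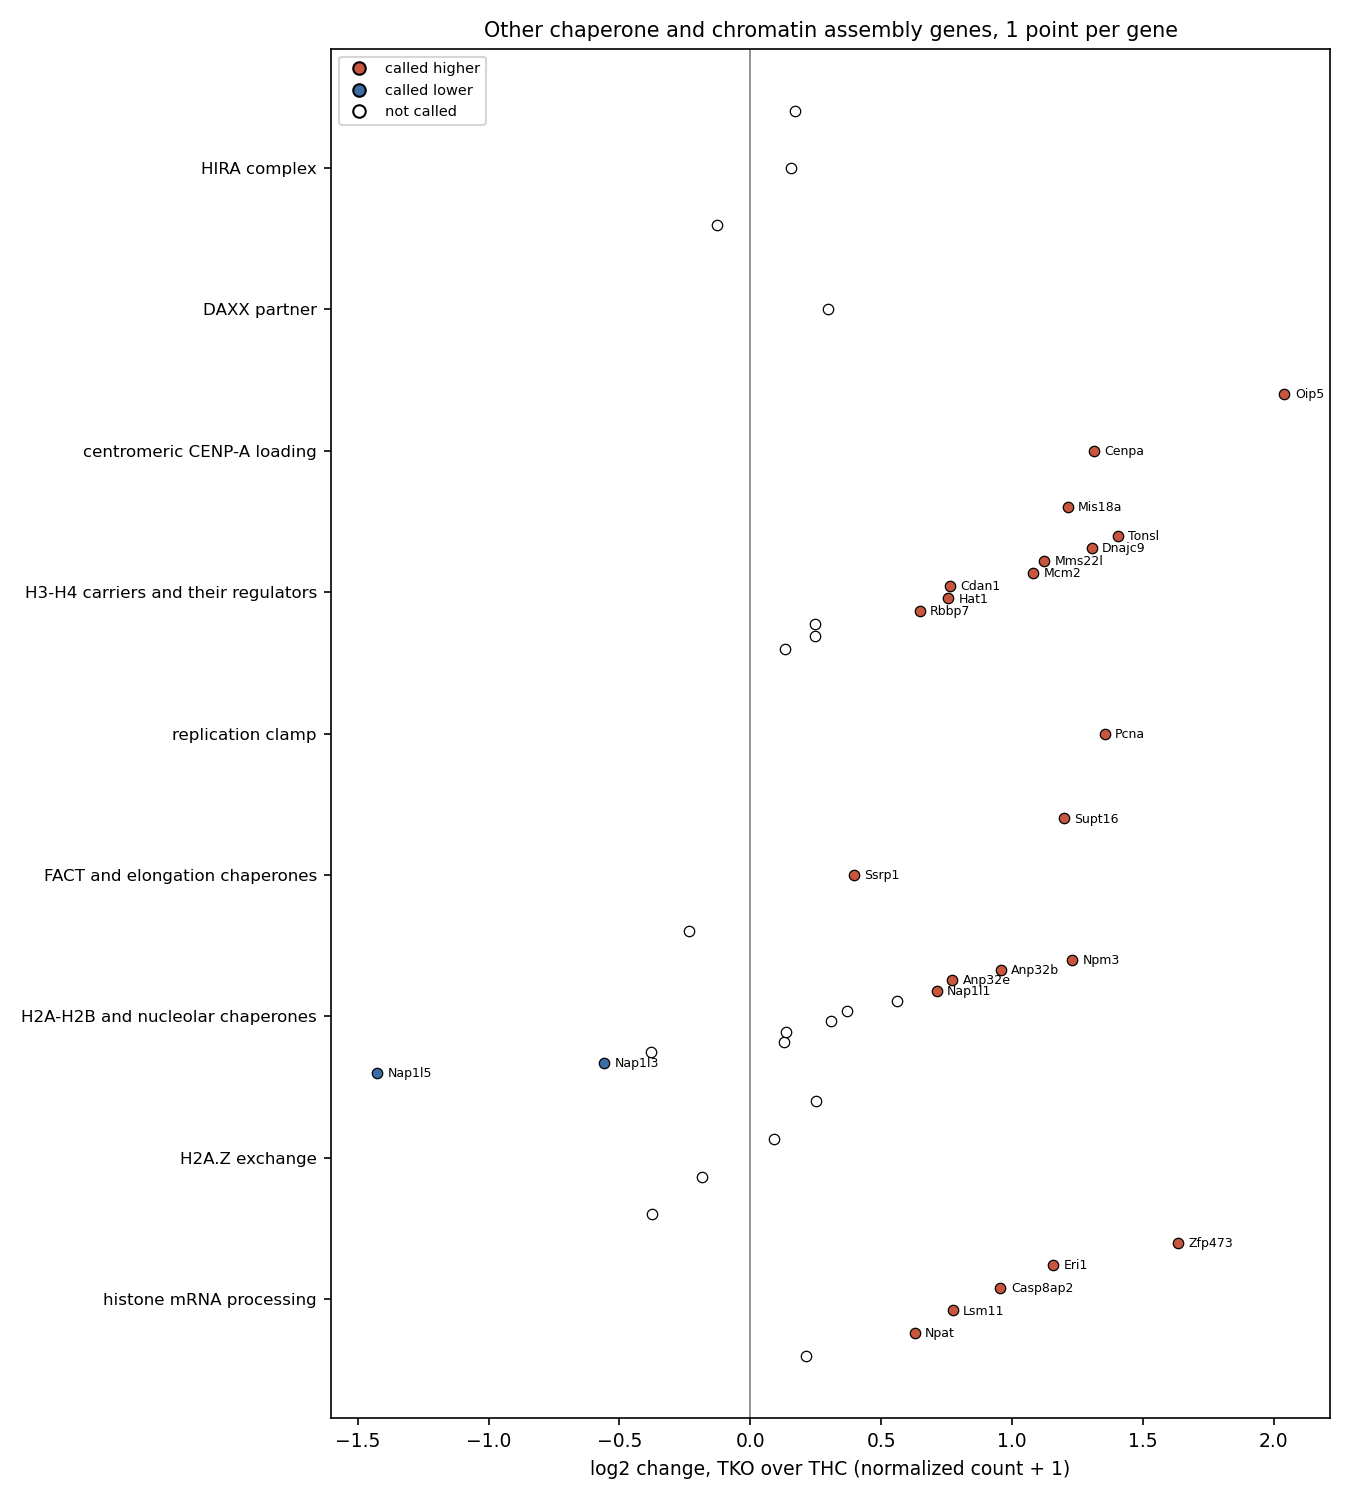
Log2 change, TKO over THC (horizontal axis), of 43 other chaperone and assembly genes by list (vertical axis), 1 point per gene, filled where called at an adjusted p under 0.05 in limma. All 3 CENP-A loading genes are filled, and no gene of the HIRA complex, the DAXX partner or H2A.Z exchange is. Of the 17278 genes tested, 12464 were not called.

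The genes most like Chaf1a and Hira in pattern were found by the root mean square difference of mean-centred log2 values over the 6 samples, among 11397 genes with a mean normalized count of at least 100. Nearest to Chaf1a were Pold1 (0.05), Plk1 (0.13) and Lig1 (0.13). Nearest to Hira were Zfp748 (0.05), Tmem263 (0.05) and Gab2 (0.06). Pold1 had counts of 339, 507 and 628 in THC and 1219, 1301 and 1065 in TKO. Its order of samples was that of Chaf1a within THC, but in TKO it was highest in TKO 2 and Chaf1a in TKO 1. Since these genes were picked for likeness over the same samples, their likeness is no separate evidence.

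Depth was alike across samples, at 15536084 to 16961817 reads assigned to genes. The targeted gene Rbl1, which encodes p107, was at 497 to 646 in THC and 14.5 to 42.0 in TKO, lower in the group labelled p107(-/-). Rb1 rose by 0.82 and Rbl2 had a change of -0.13, but counts over whole genes do not check recombination there. Of the marker lists of other SVZ cells, 7 of 8 oligodendrocyte markers fell (summed level 89445 to 98026 in THC, 17427 to 27779 in TKO), as did 7 of 8 endothelial and mural markers (7463 to 13858 and 3210.1 to 5209.7). Of 8 stem cell and astrocyte markers 3 fell and 1 rose, and of 8 striatal neuron markers 3 fell. Of 8 ependymal markers 2 fell and 1 rose, and of 8 microglia markers 3 rose, where 13.6% of all genes tested fell and 14.3% rose. None of these markers was at 0 in any library. Their part in the changes of the chaperone genes was not tested.

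The authors' deposited table gives like values for the 10 genes. Its log2 fold changes were 2.07 for Asf1b, 1.33 for Chaf1b, 1.29 for Chaf1a, 1.21 for Slbp, 1.15 for Hjurp, 0.65 for Nasp, 0.56 for Asf1a and 0.48 for Rbbp4, each with an adjusted p of at most 0.0051 in the authors' deposited table. For Hira (0.40, SE 0.30) and Daxx (0.28, SE 0.21) the authors' deposited table has adjusted p-values of 0.32 and 0.30.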

How the data were processed

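RNA-seq was done on 3 THC and 3 TKO samples, with groups, replicate numbers and batches from the titles and batch labels; the series text calls them biological replicates. Per the submitters' processing notes, HISAT2, featureCounts (Subread), DESeq2 and the build GRCm38 were used; neither their versions nor the gene annotation is stated in these sources. The authors' deposited signal is a normalized count per gene and sample. Per the file headers, the table also holds the mean signal, a log2 fold change with its SE, a test score, p-values before and after adjustment, and a weight score. Every deposited value was a whole multiple of a step per column (100% within 0.001 of a read). Reads so recovered were used for depth and for edgeR and DESeq2.

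limma 3.58.1 (R 4.3.3) was fitted to log2(normalized count + 1) with an intensity trend, batch and genotype, over 17278 genes at 10 or more in at least 3 samples, with Benjamini-Hochberg adjustment (3 residual and 8.9 prior degrees of freedom). The fit was tested on simulated data. The count tests on recovered reads and the whole-gene counts per kilobase of unshared exon were added after the data were seen. edgeR 4.0.16 called 2365 genes higher and 2413 lower, DESeq2 1.42.0 called 2513 and 2343, and limma 2469 and 2345. Libraries of a genotype differed by more than sampling noise (chi-square per degree of freedom 15.6 to 44.1). The 10 genes, their roles and all lists were chosen with earlier results of these data known. Named were the 10 genes, the targeted genes, the 3 genes with the smallest adjusted p per list, every listed gene that fell, and the 3 genes nearest in pattern to Chaf1a and to Hira; Rbbp7, Ipo4, Tlk1, Tlk2, Mki67 and Top2a were named outside this rule. One listed gene is not reported here and was left out of the counts. Gene spans and exons are from GENCODE M21 (GRCm38) and promoters from RefSeq.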

Additional observations from a re-analysis of the deposited data

How the results depend on the processing

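Results were recomputed with other pseudocounts (0.5 and 5), other filters, no batch term, a replicate block, each library left out, upper-quartile rescaling, November samples only and, added after the data were seen, edgeR and DESeq2 on recovered reads. The number of the 10 genes that rose was 6 to 8 in every setting, and none fell in any. Asf1b, Hjurp, Slbp, Chaf1b, Chaf1a and Nasp rose in all 16, and Hira and Daxx passed in none (Hira 0.22 to 0.53, adjusted p 0.22 to 0.67; Daxx 0.05 to 0.41, adjusted p 0.16 to 0.89). No direction reversed among the 160 values of the 10 genes. Of these values 11, all of Asf1a or Rbbp4, lost the call (4 and 7 respectively). Among them were both genes in the November samples only (adjusted p 0.055 and 0.20 in limma). The changes without THC 1, without TKO 1 and in the November samples only are equal, so these settings are not independent. The number of other chaperone genes that fell went from 2 to 1 with the replicate block and in the November samples only, and was 1 to 2 when a library was left out. Nap1l3 lost its call in each of these settings (adjusted p 0.063 with the block, 0.081 in November), and without TKO 2 Vps72 took its place in the count. With the replicate block the adjusted p of Rbbp4 was 0.082 and that of Ssrp1 0.11, and 21 of the other genes rose, against 22. Whether the replicate numbers pair the samples cannot be settled with 3 samples per genotype. Deviations from the genotype means correlated at 0.23, -0.11 and 0.14 for numbers 1, 2 and 3, and at -0.28 to 0.18 between unlike numbers. The shared batch of number 1 is in the model. The 4 pair ratios were recomputed with the other pseudocounts, the block, each library left out and the November samples only, and kept their direction in these. Precision is limited by 3 samples per genotype and, for Hira, by about 100 reads per library.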

Other observations

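Per kilobase of exon, Hjurp stood above the histone it loads. Its level was 713 ± 69.3 in THC, rising to 1579 ± 31.6 in TKO (SD over 3 samples), against 244 and 589 for Cenpa. Mean levels of Mis18a and Oip5 were 197 and 109.7 in THC and 451 and 426 in TKO, and the sample values of Mis18a overlapped those of Cenpa in both genotypes. Rbbp7 was above Rbbp4 on the same scale, at 2064 against 1070.4 in THC and 3228 against 1488 in TKO. This order rests on the exon lengths (2909 bases for Rbbp7, 8744 for Rbbp4), since Rbbp4 had the higher normalized count in every sample.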
